A study of Homo sapiens with 5 samples.

Results

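The F-box genes and cullins were examined in HLF cells, an established human hepatocellular carcinoma line, including FBXW7, the substrate receptor whose targets the deubiquitinase USP28 protects. The members were chosen by symbol alone: every gene named FBXL, FBXO or FBXW with a number, every gene named CUL with a number, and SKP1, SKP2, RBX1 and CCNF. These came to 59 genes of the 12468 listed in either set of averages: 49 F-box genes, 8 cullins, SKP1 and RBX1.

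RNA sequencing covered 5 conditions. USP28-Ctrl cells carried a control guide RNA and USP28-KO cells a guide against USP28, delivered by transfection with Cas9 and followed by the picking of single clones, so that the knockout background may be that of a clone. The other 3 conditions were all made in the USP28-KO background by lentivirus, with a control vector (pRRL-Ctrl), with USP28-WT, or with USP28-M, a mutant that stays monomeric. No further treatment is named for the sequenced cells in the sources used here. The study describes puromycin selection after the transfection and antibiotic selection after lentiviral transduction. The series lists 1 sample for each condition, and the authors deposited comparison tables in which each gene has a single average over all libraries of a fit. There are 2 such averages per gene: that of the USP28-Ctrl and USP28-KO libraries, and that of the 3 conditions with vectors, called the vector fit here. The values below are therefore the authors' averages, with no replicate error and no value for a single condition, and no test between conditions was made.

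F-box proteins are the interchangeable substrate receptors of SCF ubiquitin ligases. CUL1 is the scaffold, RBX1 binds its C-terminal end and brings the charged E2 enzyme, and SKP1 binds the N-terminal end and holds the F-box protein. FBXL proteins carry leucine-rich repeats, FBXW proteins carry WD40 repeats and FBXO proteins carry other domains. The other cullins use other adaptors, among them elongins for CUL2 and CUL5, BTB proteins for CUL3, and DDB1 for CUL4A and CUL4B. A cullin is switched on when NEDD8 is attached to a conserved lysine, switched off by the COP9 signalosome, and CAND1 lets receptors be exchanged. FBXW7 binds phosphorylated degrons in MYC, cyclin E, JUN and NOTCH proteins. USP28 removes ubiquitin from substrates of FBXW7, and SKP2, another F-box protein, also targets MYC.

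FBXW7 makes several protein forms that differ only in their first part, and the gene-level averages below add all of them up. The gene lies on the minus strand of chromosome 4 in GRCh38. GENCODE gives it 17 transcripts, of which 7 have a complete coding sequence, with 3 different starts. The first 30 coding bases of each are shown because they are what tells the forms apart, with the start codon in capitals. They come from 3 separate exons.
FBXW7 with 2121 coding bases, chr4:152411774-152411803, minus strand: ATGaatcaggaactgctctctgtgggcagc
FBXW7 with 1881 coding bases, chr4:152352701-152352730, minus strand: ATGtgtgtcccgagaagcggtttgatactg
FBXW7 with 1767 coding bases, chr4:152382306-152382335, minus strand: ATGtcaaaaccgggaaaacctactctaaac
The 3 coding sequences share their last 1620 bases, which encode the F-box and the WD40 repeats, so reads over that part cannot be assigned to a form.

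The NEDD8 acceptor site is shown for the cullins in which a search found it, because NEDD8 is attached there. A search of the coding sequences for the codons of Arg-Ile-Met-Lys matched CUL1, CUL2, CUL3, CUL4A and CUL4B. The codon of the lysine is in capitals, and all coordinates are GRCh38.
CUL1, chr7:148799284-148799313, plus strand: gtgagaatcatgAAGatgaggaaggttctg
CUL2, chr10:35011872-35011901, minus strand: gttcgtatcatgAAAgcacgaaaagtgctt
CUL3, chr2:224478224-224478253, minus strand: gtgcggataatgAAAtctagaaagaagatg
CUL4A, chr13:113260676-113260705, plus strand: gtcagaataatgAAGatgagaaagactctt
CUL4B, chrX:120530156-120530185, minus strand: gttcgaattatgAAGatgagaaagacactt
Over these 30 bases CUL4A shared 24 with CUL1, CUL4B shared 22, and CUL2 and CUL3 shared 18 each. CUL5, CUL7 and CUL9 held no match to this pattern, which says only that these residues do not stand in this order there.

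Depth differed between the fits. The steps between low values gave about 7.69e+06 reads over all libraries of the USP28-Ctrl and USP28-KO fit and about 3.05e+07 over those of the vector fit. A member had between 44.1 and 1175 reads behind it in the first and between 67.0 and 4561 in the second. The intervals below are exact Poisson intervals at 95% from these estimated reads and cover counting error only. Levels are the average CPM (read counts scaled to a common library size) divided by the length in kilobases of the longest GENCODE transcript of the gene, since a longer transcript gives more reads. Levels, ratios and orders are by this length unless another is named. These are bulk values, so fewer cells with an RNA and less of it per cell cannot be told apart.

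The labelled cell type was checked first. Of 8 hepatocyte markers, only FGB was listed in the USP28-Ctrl and USP28-KO fit, and 3 were listed in the vector fit. ALB, AFP, APOA1, TTR and HNF4A were listed in neither. The keratins KRT8 and KRT18 stood at 811 and 772 CPM per kilobase in the first fit, and of 5 mesenchymal genes VIM, AXL and CDH2 at 1253, 151 and 48.7, whereas FN1 at 8.74 and ZEB1 at 3.17 lay below the median of all genes. EPCAM, CDH1 and KRT19 were not listed. None of 3 endothelial markers was listed, and of 4 leukocyte markers only CD68, a lysosomal protein, was. USP28 itself averaged 5.15 log2 CPM in the USP28-Ctrl and USP28-KO fit and 9.79 in the vector fit, in which 2 of 3 conditions expressed it from a vector. The pooled averages do not allow the knockout to be checked in its own libraries.

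As a family, the F-box genes and cullins that were listed stood at low to middle levels. Of 74 RefSeq symbols that fit the rule, 16 were listed in neither fit and have no level here. In the USP28-Ctrl and USP28-KO fit 55 members were listed, with a median of 7.38 CPM per kilobase beside 11.1 for all 10782 genes with a length. In the vector fit all 59 were listed, with a median of 5.79 beside 8.44 for 11838 genes. Above the median of all genes stood 20 of the 55 and 22 of the 59. No member reached the top 10% of genes in either fit, and 7 and 5 members fell in the bottom 10%. The highest member exceeded the lowest 63.9-fold in the first fit and 110-fold in the second. These ranges have different floors, since the lowest average of any gene was 1.70 log2 CPM in the first fit and 0.397 in the second. The lowest member of the second, FBXO48 at 0.435 CPM per kilobase, was listed there only. The lowest there of the members listed in both fits was FBXO41 at 0.730. With all members put in order of level, the counting intervals of neighbours overlapped in 50 of 54 neighbouring pairs and in 50 of 58, so most single steps in the order are not resolved.

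The classes differed in where they stood. The median percentile among all genes was 64.0 for the cullins and 67.6 for SKP1 and RBX1 in the USP28-Ctrl and USP28-KO fit, beside 37.5 for the FBXL genes with SKP2, 29.02 for the FBXO genes with CCNF, and 33.2 for the FBXW genes. In the vector fit the same medians were 64.6, 66.8, 38.2, 36.7 and 40.2. Thus, by the longest transcript, the medians of the cullins and of SKP1 and RBX1 lay in the upper part of the range and those of the receptor classes in the lower part. CUL5 and CUL9 lay lower, at percentiles 37.2 and 29.3 in the first fit. By the median transcript CUL1 (20.3), CUL2 (15.6) and CUL7 (21.9 CPM per kilobase) were below the median of all members there, 25.8. The other cullins, SKP1 and RBX1 were above it. Class medians by other lengths were not computed. These are descriptions of single averages, with no test.

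**Figure D1:**
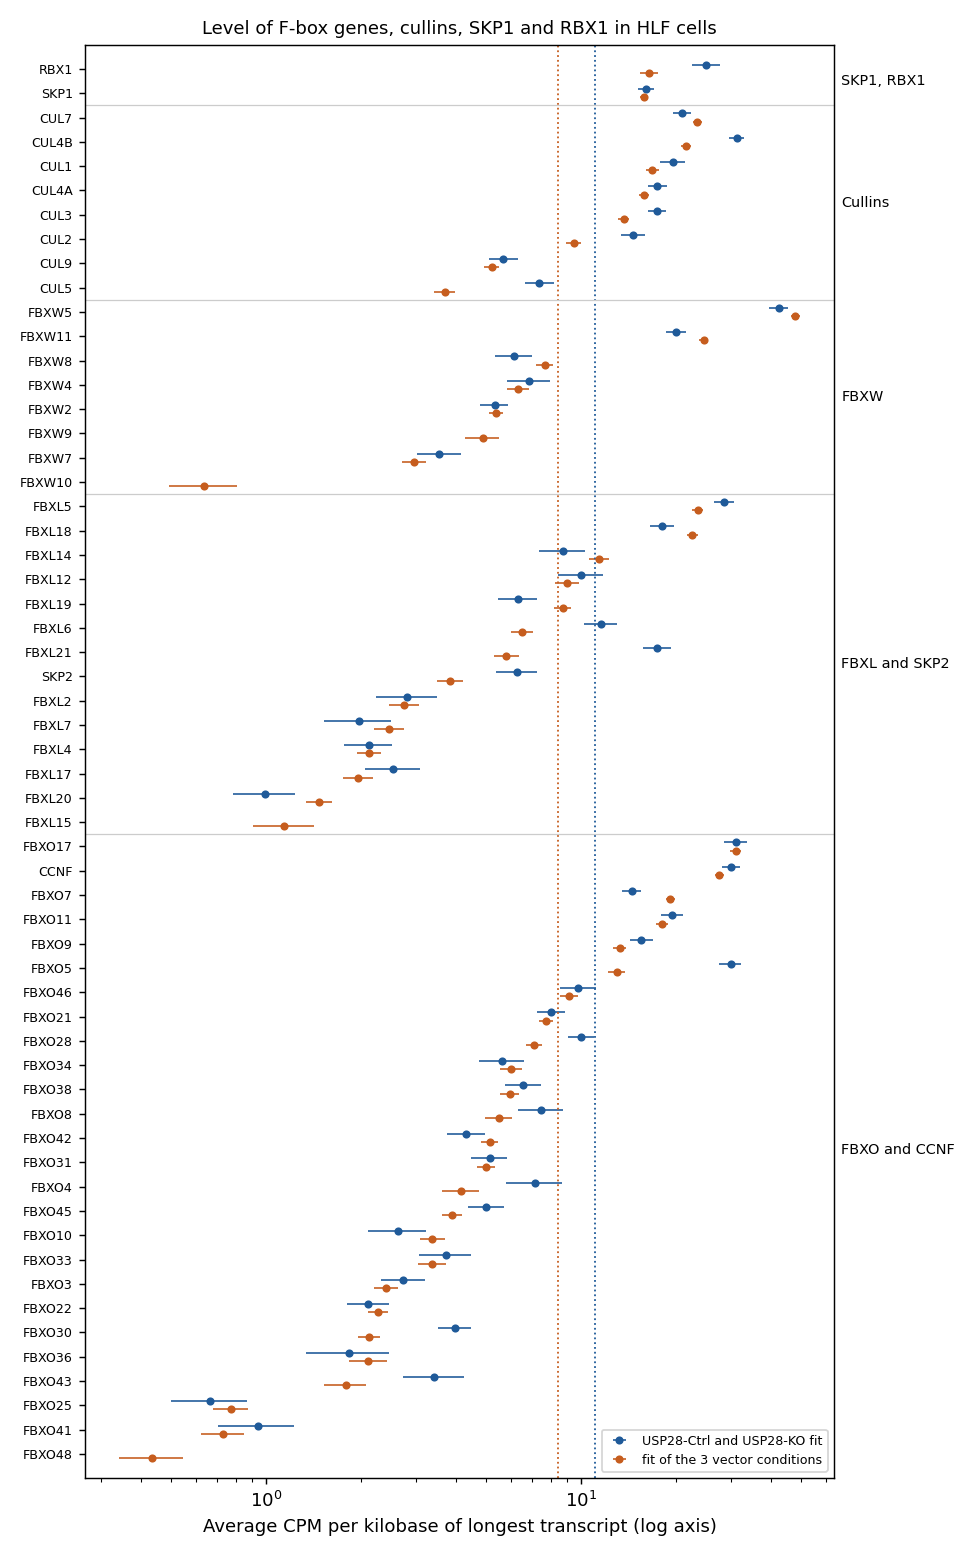
Average CPM per kilobase of the longest transcript (log axis) for 58 of the 59 members, in blue for the USP28-Ctrl and USP28-KO fit and in orange for the vector fit. Bars are 95% Poisson intervals of the estimated reads, and dotted lines mark the median of all genes of each fit (11.1 and 8.44). Most F-box genes lie to the left of the lines and 6 of 8 cullins to the right.

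By the longest transcript, FBXW7 was among the lower receptors. Its average was 4.32 log2 CPM in the USP28-Ctrl and USP28-KO fit, from about 154 reads, and 4.06 in the vector fit, from about 508 reads. Per kilobase this was 3.54 (interval 3.01 to 4.15) and 2.95 (2.70 to 3.22). Among the F-box genes of the members, FBXW7 thus held place 33 of 45 in the first fit and place 34 of 49 in the second. Its percentiles among all genes were 17.1 and 23.9. Its neighbours in the first order were FBXO33 at 3.72 and FBXO43 at 3.42 CPM per kilobase, and in the second FBXO33 at 3.36 and FBXL2 at 2.74. The counting intervals of all of these overlapped that of FBXW7.

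Where FBXW7 stands depends on the length taken for it. Its longest transcript has 5653 bases, whereas many of its annotated transcripts are short. In the first fit its level was 3.54 CPM per kilobase by the longest transcript, 5.35 by the principal isoform, 9.44 by coding length and 21.8 by the median transcript. The median of all members by the same lengths was 7.38, 8.58, 19.2 and 25.8. By the median transcript FBXW7 was not among the lower F-box genes. CUL1 exceeded FBXW7 5.53-fold by the longest transcript and 2.73-fold by coding length, but the ratio was 0.933 by the median transcript. Which transcripts were read in these cells is not known from gene-level averages.

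**Figure D2:**
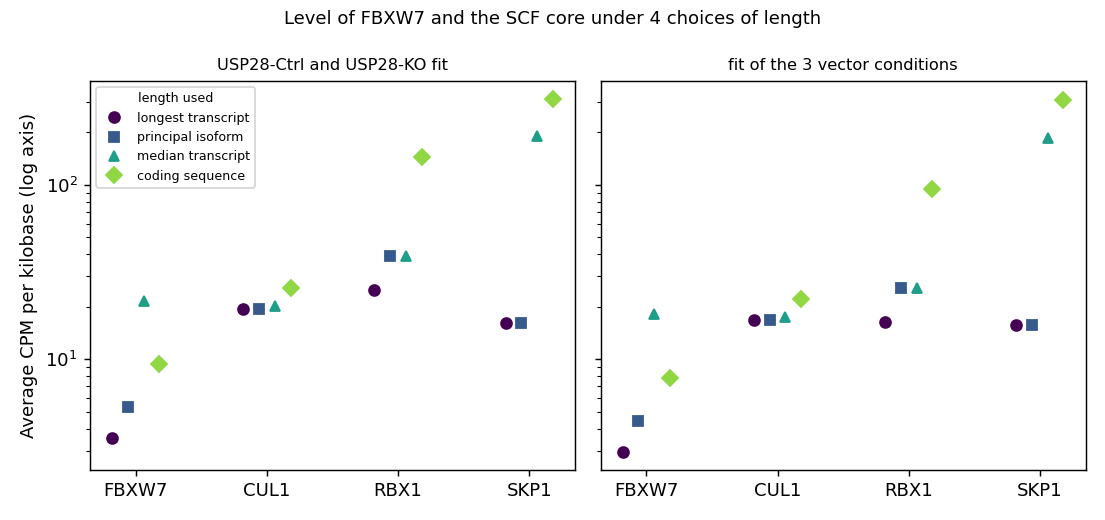
Average CPM per kilobase (log axis) of FBXW7, CUL1, RBX1 and SKP1 under 4 choices of gene length, with 1 panel for each fit. CUL1 goes from 19.6 to 25.8 and SKP1 from 16.1 to 312 CPM per kilobase in the first fit between the longest transcript and the coding length.

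By the longest transcript, the FBXW class held the highest F-box gene of all. This was FBXW5, a receptor described with both CUL1 and the CUL4 ligases, at 42.5 (39.5 to 45.5) CPM per kilobase in the USP28-Ctrl and USP28-KO fit and 47.9 (46.3 to 49.5) in the vector fit. By other lengths it was not the highest, with FBXO7 above it by the principal isoform (45.4 against 44.7 in the first fit), FBXO17 by coding length (88.6 against 59.8) and FBXL5 by the median transcript (142 against 60.2). FBXW11, one of the β-TrCP receptors that act on β-catenin and IκB, stood at 20.1 and 24.5. It exceeded its paralog BTRC, which is named outside the FBX scheme and was at 4.23 and 4.63, by 4.74-fold and 5.30-fold. The order of this pair was the same under all 4 choices of length, the smallest ratio being 3.68. FBXW11 also exceeded FBXW7 5.66-fold and 8.31-fold per kilobase.

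Apart from FBXW10, the other FBXW genes lay between FBXW7 and the median of all genes in each fit that listed them. In the vector fit FBXW8, the partner of CUL7, was at 7.66 CPM per kilobase, FBXW4 at 6.29 and FBXW2 at 5.36. FBXW9 was listed in the vector fit only, at 4.87, and so was FBXW10, at 0.636 from about 67.0 reads. FBXW10 has a near copy, FBXW10B, with which reads may have been shared, and 26.4% of the exonic bases of FBXW9 overlap exons on the other strand. Whether the counting used strand is not given in the sources used here.

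Among the FBXL genes, FBXL5, the iron-sensing receptor that acts on IRP2, was highest in both fits, at 28.5 and 23.5 CPM per kilobase. FBXL18 followed in both, at 18.1 (16.5 to 19.8) and 22.6 (21.7 to 23.5). Its counting interval overlapped that of FBXL21 in the first fit and that of FBXL5 in the vector fit. By the principal isoform FBXL6 was above FBXL18 in the first fit, at 20.1. SKP2, the receptor for the CDK inhibitor p27, stood at 6.27 (5.39 to 7.25) and 3.84 (3.49 to 4.22), above FBXW7 in both fits with counting intervals that did not overlap those of FBXW7. By the median transcript the order was the other way, with SKP2 at 15.3 and FBXW7 at 21.8 in the first fit and at 9.39 and 18.1 in the vector fit, and by the principal isoform it was so in the vector fit, at 3.84 and 4.45. The lowest were FBXL20 at 0.989 in the first fit and FBXL15 at 1.14 in the second, where FBXL20 was next at 1.47. FBXL15 was listed in the vector fit only, and 27.7% of its exonic bases overlap PSD on the other strand. FBXL7, which was among the 5 lowest F-box genes of the first fit, was at 1.97 there and at 2.46 in the vector fit.

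FBXL21 was unusual in the class. The human gene is annotated in GENCODE as a transcribed unitary pseudogene, and the first fit lists it under the symbol FBXL21P. Its level was 17.4 (15.7 to 19.3) CPM per kilobase in the first fit and 5.79 (5.28 to 6.34) in the vector fit. Of its exonic bases 12.9% overlap LECT2 on the other strand.

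Among the FBXO genes and CCNF, the highest by the longest transcript were FBXO17, of the group that binds sugar chains on glycoproteins, at 31.0 in both fits, and CCNF, which encodes cyclin F, the founding F-box protein, at 29.9 and 27.5 CPM per kilobase. FBXO7, at 14.5 and 19.2 by that length, was above both by the principal isoform, at 45.4 and 60.3, and FBXO9 was highest of the class by the median transcript, at 112 and 95.3. FBXO5, which encodes the APC/C inhibitor EMI1, was at 29.8 (27.5 to 32.3) in the first fit and 13.0 (12.2 to 13.8) in the vector fit. CUL4B apart, FBXO17, CCNF and FBXO5 were the members next below FBXW5 in the first fit, and their counting intervals all overlapped.

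The lowest FBXO genes had few reads behind them. In the first fit FBXO25 was at 0.664 (0.498 to 0.869), FBXO41 at 0.940 and FBXO36 at 1.84 CPM per kilobase. In the vector fit FBXO48, listed there only, was at 0.435 from about 75 reads, FBXO41 at 0.730 and FBXO25 at 0.771. FBXO25 has a longest transcript of 10386 bases, and by coding length its level was 6.27 in the first fit, so its place is set in part by that choice.

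Among the members, the 5 highest F-box genes made up 36.5% of the summed F-box level in the USP28-Ctrl and USP28-KO fit and 37.7% in the vector fit. This sum leaves out F-box genes with other names, such as FBH1 and KDM2A, and includes the pseudogene FBXL21. It exceeded CUL1 22.6-fold and 24.3-fold and SKP1 27.5-fold and 25.9-fold per kilobase of the longest transcript. The sums over SKP1 rest on its longest transcript of 9474 bases. By coding length SKP1 exceeded CUL1 12.1-fold in the first fit, whereas by the longest transcript the ratio of SKP1 to CUL1 was 0.822. RBX1 was at 24.97 (22.5 to 27.7) and 16.4 (15.4 to 17.5) CPM per kilobase, with a ratio to CUL1 of 1.28 and 0.973. That ratio was, for the vector fit, 1.48 by the median transcript, 1.53 by the principal isoform and 4.27 by coding length. RNF7, which takes the place of RBX1 with CUL5, was at 15.3 and 14.5, and the ratio of RBX1 to RNF7 was 1.63 in the first fit by the longest but 0.746 by the median transcript.

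Among the cullins, CUL4B and CUL7 were highest and CUL5 and CUL9 lowest, by the longest transcript. In the USP28-Ctrl and USP28-KO fit CUL4B stood at 31.2 (29.4 to 33.0) CPM per kilobase, CUL7 at 20.9 (19.6 to 22.3) and CUL1 at 19.6 (17.8 to 21.5). CUL4A and CUL3, at 17.5 and 17.4, could not be told apart by their counting intervals, CUL2 was at 14.6, CUL5 at 7.38 and CUL9, the parkin-like cullin, at 5.67. In the vector fit the order was CUL7 at 23.4, CUL4B at 21.6, CUL1 at 16.9, CUL4A at 15.8, CUL3 at 13.6, CUL2 at 9.47, CUL9 at 5.21 and CUL5 at 3.69. CUL4B and CUL4A, the paralogs that share DDB1, had a ratio of 1.78 and 1.36, with CUL4B above CUL4A under all 4 lengths in the first fit. In the vector fit the ratio was 0.853 by the principal isoform and 0.979 by coding length, so there the order depends on the length.

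**Figure D3:**
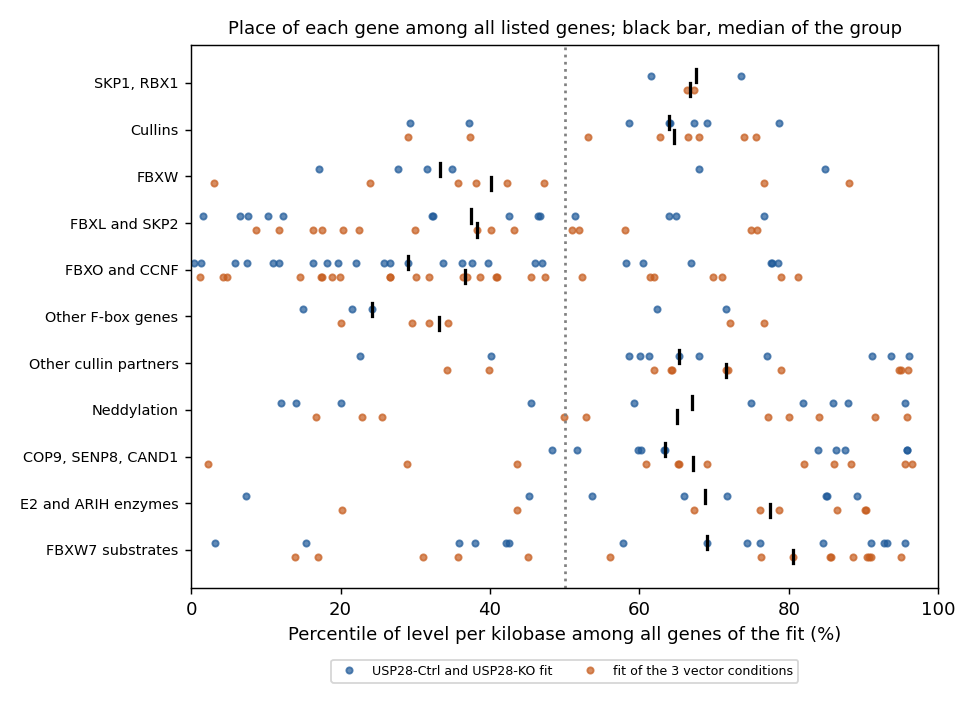
Percentile of the level per kilobase among all genes of the same fit, for each gene of the classes and of the pathway lists, in blue for the USP28-Ctrl and USP28-KO fit and in orange for the vector fit. Black bars are group medians and the dotted line is the median of all genes. The receptor classes have medians between 29.02 and 40.2, and the cullins, SKP1 and RBX1 between 64.0 and 67.6.

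The regulators of the cullins stood in the upper part of the range, with median percentiles of 67.1 and 65.03 for neddylation and 63.4 and 67.2 for the COP9 signalosome and exchange factors. Of 10 neddylation genes all were listed, 6 of them above the median of all genes in each fit. UBE2M, the E2 enzyme for NEDD8, was the highest at 124 and 125 CPM per kilobase. The lowest was DCUN1D3 at 2.76 in the first fit and DCUN1D1 at 2.02 in the second, both co-E3 factors that help NEDD8 transfer. Of 13 genes of the COP9 signalosome, SENP8 and the CAND proteins, 11 and 12 were listed. COPS6 was the highest of these at 136 and 142, and CAND1, the exchange factor, was at 17.1 and 12.7. The lowest were COPS5, the catalytic subunit of the signalosome, at 10.5 in the first fit and SENP8, which processes NEDD8, at 0.559 in the second.

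Of 8 E2 and ARIH enzymes that work with cullins 6 stood above the median of all genes in each fit, and so did 9 of 11 adaptors and other partners. CDC34, the E2 enzyme of SCF ligases, was at 43.2 and 56.5. Of F-box genes with other names, FBH1, a helicase, was highest at 23.1 and 24.5, and KDM2A, a histone demethylase, was at 16.5 and 20.1. KDM2B was at 3.22 and 4.16 and LMO7 at 4.69 and 3.80.

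Substrates of FBXW7 mostly had more RNA per kilobase than FBXW7 itself, as did most listed genes. FBXW7 stood at percentiles 17.1 and 23.9 of all genes. All 11 adaptors and other partners were above it in each fit, so lying above FBXW7 is not particular to substrates. Of 16 substrates on the list, 15 were listed in each fit, 13 of them above FBXW7, with median percentiles of 69.0 and 80.6. AURKA was the highest, at 127 and 108 CPM per kilobase, and NOTCH1 the lowest, at 1.34 and 1.71. MYC stood at 42.0 and 60.0, which was 11.9-fold and 20.3-fold the level of FBXW7, and 3.35-fold in the first fit by the median transcript. MYCN was listed in neither fit. USP25, the paralog of USP28, was at 10.2 and 5.38, and USP28 at 7.60 and 189.

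Set side by side, the averages of the fits gave much the same order of members. The rank correlation of their levels was 0.942 over 55 members, beside 0.946 over 10684 genes, and the members share libraries and gene lengths, so this is a description with no p. The difference of the averages, vector fit minus USP28-Ctrl and USP28-KO fit, had a median of -0.12 on the log2 CPM scale for the members and -0.12 for all genes. It was below 0 for 37 of 55 members, and for 59.9% of all 10976 genes listed in both. The fits were normalized separately and hold different conditions, libraries and depths. These cannot be told apart from one another, so a difference cannot be assigned to USP28 or to any of them.

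At least 1.5-fold lower in the vector fit were 11 of 55 members (20%), beside 21.0% of all genes, and at least 1.5-fold higher were 0 of 55, beside 6.91% of all genes. The first share is near that of all genes. The members with the largest differences downward were FBXL21 at -1.59 (46.9 and 15.6 CPM), FBXO5 at -1.20 (77.8 and 33.9 CPM) and CUL5 at -1.0004 (46.8 and 23.4 CPM). The remaining 8 of these members included FBXO43, FBXO30, FBXL6, FBXO4, SKP2 at -0.71, CUL2 at -0.63 and RBX1 at -0.61. Upward, the largest were FBXL20 at 0.58, FBXL19, which binds CpG islands, at 0.47 and FBXO7, a receptor linked to mitophagy and to parkinsonism, at 0.41. FBXW7 differed by -0.26, and its counting intervals per kilobase overlapped between the fits. CUL1 differed by -0.22 and SKP1 by -0.03.

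The GC content of transcripts moved with this difference. Its rank correlation with GC content was 0.478 over 10684 genes and 0.447 over the 55 members. Of the 11 members that were lower, 10 had a GC content under the 47.5% that was the median of genes listed in both fits, as had 82.0% of all genes that were lower. FBXO5, CUL5 and FBXO30 have the lowest values among them, at 34.2%, 36.6% and 34.8%. With the median difference of genes of like GC content subtracted, 3 of 55 members were lower by at least that fold, beside 11.0% of all genes, namely FBXL21 at -1.22, FBXL6 at -0.85 and FBXO43 at -0.70. After that step 4 of 55 were higher, beside 8.26% of all genes, namely FBXO7 at 1.00, FBXL4 at 0.83, FBXO22 at 0.78 and FBXL20 at 0.72. Of the exonic bases of FBXL6, 31.7% overlap SLC52A2 on the other strand and 5.3% overlap AC233992.2 on the same strand. The part of library preparation in the difference was not tested.

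**Figure D4:**
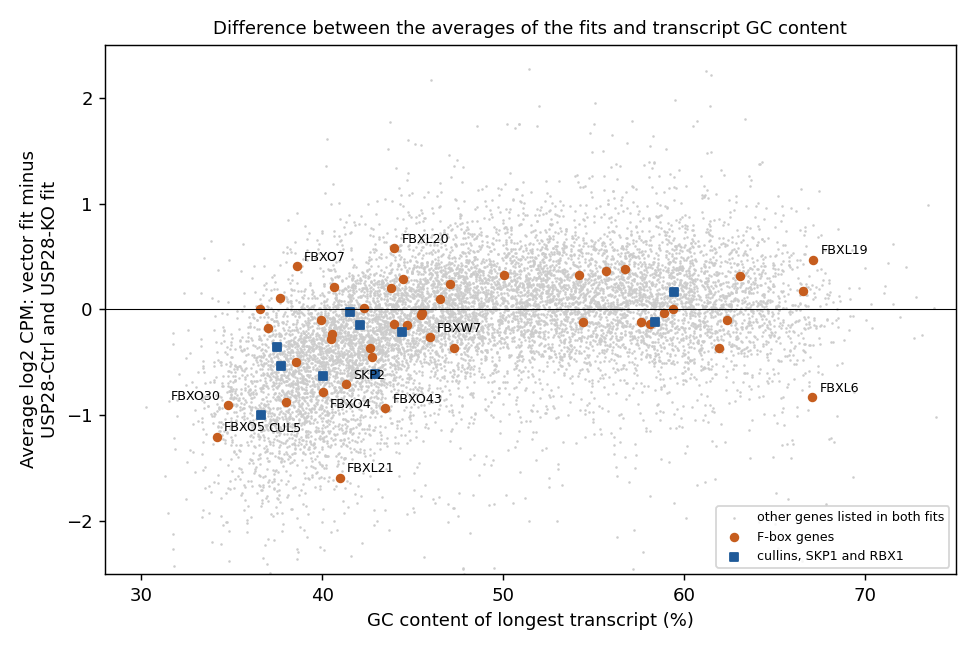
Difference of the average log2 CPM (vector fit minus USP28-Ctrl and USP28-KO fit) against the GC content of the longest transcript, for F-box genes (orange), cullins, SKP1 and RBX1 (blue squares) and all other genes listed in both fits (grey). Of the 10629 other genes 39 lie outside the axes. Members under 40% GC lie mostly below 0, as the grey genes there do.

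Promoters of the members were searched for the E-box that MYC with MAX binds, CACGTG on either strand, since MYC is the substrate this study follows. RefSeq promoters of 300 bases (250 before the start and 50 after it, GRCh38.p14) were at hand for 47 members, with 78 promoters in all. The E-box stood in 9 of these (11.5%), in 8 genes, beside 9.46% of 14187 promoters of genes listed in a fit and 7.25% of all 35097 promoters. The promoters of FBXW4 overlap and hold the same E-box, which is counted in each. By gene, the E-box stood in 8 of 47 members, beside 1247 of 9756 genes listed in a fit. The share of promoters in members is near that of the listed genes. Windows of 30 bases from 4 of the 8 genes are shown as examples of the scaffold, ring and receptor genes, with the E-box in capitals. The others were FBXW4, FBXW8, FBXL2 and FBXL19.
CUL4B, chrX:120560011-120560040, minus strand: cactcgaggggtCACGTGctctatttatgt
CUL5, chr11:108008906-108008935, plus strand: ccgccctcgcgtCACGTGacgtggccgcgg
RBX1, chr22:40951249-40951278, plus strand: aagaggcgtggtCACGTGctccgcccccac
FBXL5, chr4:15655460-15655489, minus strand: cgcgcgcccggtCACGTGggccgcagggat
The E2F octamers TTTCCCGC and TTTGGCGC, on either strand, stood in 2 promoters of members (2.56%, beside 3.496% of promoters of listed genes), and TATAAA in 5 (6.41%, beside 6.23%). A match is a stretch of letters and not a bound site, and binding of MYC was not measured in these files.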

How the data were processed

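RNA of HLF cells in 5 conditions was sequenced by the study from total RNA. Per the labels and the study's methods, the authors demultiplexed reads with bcl2fastq 2.20, mapped them with STAR 2.5.4 and fitted edgeR 3.26.8, with hg19 named as the build; counting, annotation, strand setting, low-count filter and number of libraries per condition are not given in the sources used here. The 3 deposited tables hold, per gene, the authors' log2 fold changes, F statistics, p-values and adjusted p-values, none of which was used, and a deposited average log2 CPM, which was. This average pools all libraries of a fit and includes a small prior count of the fitting. It is the same in both tables of the vector fit. The columns matched to no sample of the series numbered 0.

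Members and gene lists were chosen with earlier results of these data known. One NCBI gene listed as FBXL21P in the first fit was taken as FBXL21 by its identifier. Of 74 RefSeq symbols that fit the rule, 58 were listed, and 16 were listed in neither fit and so were not analysed here. Averages were turned into CPM and divided by the longest transcript in GENCODE 29 (GRCh38), matched by NCBI gene ID for 97.1% and 95.9% of genes. The files hold no coordinates, and all positions are GRCh38. Total reads were estimated from the step between values of the lowest 10% of genes: 0.130 CPM, with 94.8% of 1110 genes within 0.1 of a whole read, and 0.0328 CPM, with 65.2% of 1234. The average includes the prior, so reads are approximate.

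The genes named were FBXW7, SKP1, SKP2, RBX1, CCNF, all cullins, and the 5 highest and 5 lowest F-box members per kilobase of each fit. Also named were members listed in a single fit, the 3 largest differences each way, USP28, USP25, MYC and other F-box genes. From the neddylation, deneddylation and substrate lists the highest and lowest were named. Further genes (neighbours, paralogs, partners, those past 1.5-fold), the motifs and the sequence windows were picked after values were seen. The GC step used 20 bins. No test between conditions was made, because the averages hold no replicates. Alternatives were other gene lengths, a floor of 3 log2 CPM, genes listed in both fits, no length, centring, and another estimate of depth. Scripts were tested on simulated data and run with Python 3.11.15, pandas 2.3.3 and scipy 1.17.1. The values of 1 member are counted in the summaries but not reported here by name.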

Additional observations from a re-analysis of the deposited data

How the results depend on the processing

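No paired analysis was possible because the tables hold pooled averages without replicate columns, and for the same reason no library could be left out. The median level of the members in the USP28-Ctrl and USP28-KO fit was 25.8 CPM per kilobase by median transcript length, 19.2 by coding length and 8.58 by principal isoform, and in the vector fit 19.97 by median transcript length and 15.7 by coding length. The percentile of FBXW7 was 12.8 among genes of at least 3 log2 CPM and 24.0 by principal isoform in the first fit, and 10.3, 29.1 and, among genes listed in both fits, 17.2 in the vector fit. The median percentile of the members in the vector fit was 31.1 among genes of at least 3 log2 CPM, 43.7 without length and 36.9 by principal isoform. The reads behind FBXW7 in the vector fit came to 593 from the smallest spacing of values. The median difference between the fits, -0.12 as deposited, was 0.00045 after centring and 0.0075 after the GC step, and single members changed sign with that step, among them CUL3 from -0.35 to 0.32 and CUL4B from -0.53 to 0.14. The causes of these shifts were not tested. The other 10 alternatives of summary values stayed within the counting interval or within 1.5 times the count. For medians over members that interval was the one of the single member nearest the median, and it does not measure the spread of the median. Of the alternatives for single members 272 moved past the counting interval of the member and 176 did not. Principal isoform and GC step were added after seeing the data, and subtraction of the prior count was not run because the low values do not show it. Levels near the 3 reads that a count of 0 allows (0.390 and 0.0985 CPM) could not be resolved, and the tables' own filter lies above them.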
